A study of Mus musculus with 12 samples.

Results

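The genes described here encode the proteins of the cytosolic ribosome. They were taken as the mouse protein-coding genes whose symbol is Rpl or Rps followed by a number, with or without a closing letter or number, together with Rplp0, Rplp1, Rplp2 and Rpsa. Of 84 such genes, 82 had at least 10 estimated reads in at least 3 of 12 tumour libraries, among 15459 genes that met the same limit. The 82 genes comprised 50 of the large subunit and 32 of the small subunit. Rpl10l was listed at 0 TPM in the 12 libraries, and Rpl3l, the striated muscle form of Rpl3, averaged 0.388 TPM, so neither entered a test.

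The libraries were made from tumours of 4T1, a mouse mammary carcinoma line, grown from 100000 cells under the skin of female BALB/c mice that were 6 to 8 weeks old at injection. From day 5, extracellular vesicles (EVs) of MS-1, a mouse endothelial line, were injected beside the tumour at 3 µg every 2 days, and RNA was taken on day 21. The EVs had been electroporated with a mimic of cel-miR-67, a nematode miRNA without a mouse counterpart (ctrl), or with the mimic of miR-142-5p, that of miR-183-5p or that of miR-222-3p. Each of the 4 groups held 3 tumours. The groups thus shared the tumour line, the strain and the EV source, and no group without EVs was analysed here. The labels number the tumours but do not name the animals, so p-values measure the spread between these samples. Polyadenylated RNA of whole tumours was sequenced, and in such bulk RNA fewer cells of a type and less RNA per cell cannot be told apart.

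The ribosome consists of a small subunit, which reads the mRNA, and a large subunit, which joins the amino acids. Each ribosome carries about the same number of copies of nearly every ribosomal protein, and surplus proteins are degraded. The mRNAs of these proteins begin with a run of pyrimidines, the terminal oligopyrimidine (TOP) motif, through which mTOR signalling and the binding protein Larp1 control their translation. In growing tumours they are among the most abundant mRNAs. Because they are short and abundant, they have been copied back into the genome many times as processed pseudogenes, intronless copies that are often identical to the mRNA over their whole length.

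Such copies affect the deposited values of many ribosomal protein genes, so sequences of several genes and copies are given first. The coordinates are of the gene on GRCm38, the bases are from GENCODE M21 transcripts, and coding positions are counted from 1 at the first base of the start codon. The start codon is in capitals in the 3 sequences that follow, each the first 90 coding bases of a gene that its leading copy repeats without a mismatch over the whole coding sequence. Rps12 (chr10:23785183-23787275, minus strand) is repeated by Rps12-ps3 (chr19:59322290-59322783) over 399 coding bases. Rps27 (chr3:90212522-90213651, minus strand) is repeated by Rps27rt (chr9:114982366-114982739) over 255, and Rpl5 (chr5:107900502-107909005, plus strand) by Gm15500 (chr7:114705217-114706235) over 894.

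Rps12: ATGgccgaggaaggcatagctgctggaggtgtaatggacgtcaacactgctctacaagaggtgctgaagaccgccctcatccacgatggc
Rps27: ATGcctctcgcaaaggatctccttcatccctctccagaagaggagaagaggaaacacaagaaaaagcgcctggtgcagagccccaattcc
Rpl5: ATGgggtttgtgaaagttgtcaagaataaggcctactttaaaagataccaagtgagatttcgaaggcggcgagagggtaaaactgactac

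No read that lies within these coding bases can be placed on the gene or on its copy by sequence. Other copies differ at a few bases, which are in capitals in the next groups. Over coding positions 1 to 90, the copy Gm6472 at chrX:152909505-152910155 differed from Rps7 at chr12:28630854-28635953 by the substitutions T26G and G48A, with 1 more (G123T) in the rest of the 585 coding bases.

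Rps7: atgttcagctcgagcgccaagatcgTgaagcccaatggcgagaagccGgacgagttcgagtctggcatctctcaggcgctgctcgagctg
Gm6472: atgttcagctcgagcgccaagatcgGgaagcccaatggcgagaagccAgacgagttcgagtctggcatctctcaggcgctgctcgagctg

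Over coding positions 97 to 186, the 2 leading copies of Rps18 (chr17:33951999-33956001) each differed from it by 1 base, T186C in Gm10260 (chr13:97760072-97760632) and A171C in Gm11361 (chr13:28257528-28258134). Over the 459 coding bases the copies held 4 and 3 substitutions.

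Rps18: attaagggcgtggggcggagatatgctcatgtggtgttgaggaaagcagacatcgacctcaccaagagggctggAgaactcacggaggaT
Gm10260: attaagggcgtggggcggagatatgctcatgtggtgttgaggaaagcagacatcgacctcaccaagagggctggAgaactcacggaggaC
Gm11361: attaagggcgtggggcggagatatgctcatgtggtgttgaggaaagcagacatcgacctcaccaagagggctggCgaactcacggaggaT

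Rplp0 encodes the stalk protein P0 of the large subunit and is widely used as a reference gene in quantitative PCR. Its copy Gm8730 (chr8:102864845-102865798) held 12 substitutions over 954 coding bases, of which A390G, A393G and A447T lie in positions 358 to 447.

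Rplp0: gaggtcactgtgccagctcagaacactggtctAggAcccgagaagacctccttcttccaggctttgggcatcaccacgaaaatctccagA
Gm8730: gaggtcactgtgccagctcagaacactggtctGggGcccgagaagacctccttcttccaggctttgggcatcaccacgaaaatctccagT

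Copies were taken as annotated pseudogenes or other protein-coding genes whose transcript matched a ribosomal protein transcript at 95% identity or more over at least 50% of the copy. There were 624 such copies, of which 613 were annotated as pseudogenes and 11 as protein-coding genes, and 79 of the 82 genes had at least 1. Most held almost no reads, with 424 copies averaging under 1 read per library. In contrast, 47 copies averaged 100 reads or more, and 20 of these were identical to their gene over the aligned bases. Copies took between 23.42% and 24.43% of the estimated reads of genes and copies together in the 12 libraries.

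The reads were distributed unevenly among the genes. For 49 genes, copies held under 1% of the reads, for 14 between 1% and 50%, for 19 over 50% and for 10 of these over 80%. In Rps2, a small-subunit protein at the mRNA entry, copies held 99.34% of the reads on average (99.17% to 99.55% over the 12 libraries), most of them in the pseudogene Rps2-ps10. Rps27 had 98.26% in copies (97.31% to 99.07%), Rps18 97.48% (96.99% to 98.15%) and Rpl5 94.57% (93.65% to 95.41%). Rpl5 binds 5S ribosomal RNA and, outside the ribosome, the p53 regulator Mdm2. Its pseudogene Gm15500 averaged 29873 ± 3224 reads (SD, n = 12), the most of any copy.

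A copy with the annotation protein-coding was the main recipient for several other genes. Rpl10-ps3 averaged 28795 ± 3869 reads (SD, n = 12) beside Rpl10, Rps12-ps3 averaged 20222 ± 2908 beside Rps12, and Rps27rt averaged 12296 ± 1573 beside Rps27. Some copies were given nearly equal shares, as in Rpl35a, where 5 copies lay between 662.3 and 662.4 reads in ctrl tumour 2 and between 925.5 and 925.8 reads in miR-183-5p tumour 2. At the other end, Rps21, Rpl8 and Rpl22 had 0% of their reads in copies in the 12 libraries, and Rpl4 had at most 0.00286%.

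**Figure D1:**
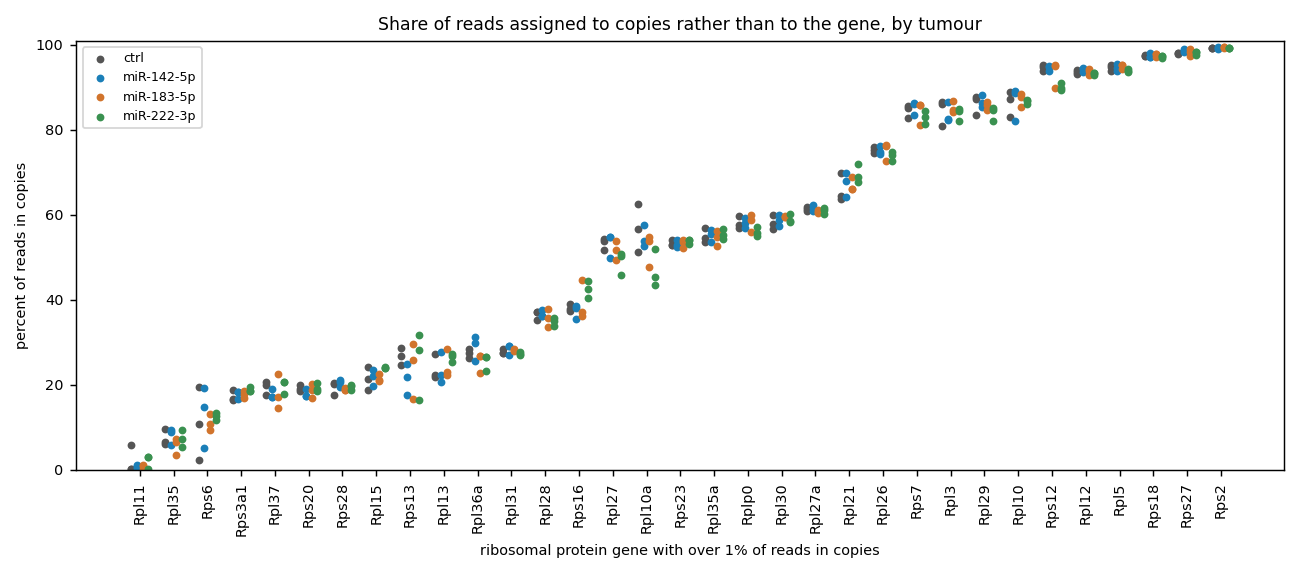
Percent of reads assigned to copies (vertical axis) for each ribosomal protein gene with over 1% in copies, ordered by its mean, with 1 point per tumour coloured by group. For Rps2, Rps27 and Rps18 the points lie above 96%, while Rps6 ranges from 2.29% to 19.55% and Rpl10a from 43.39% to 62.55%.

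The level of a gene is given below as TPM, the abundance per unit of transcript length scaled to a fixed sum per library, which allows genes of different length to be compared. Leaving aside 5 paralogues described below, 77 genes spanned 18.7 TPM (Rps2) to 4531 TPM (Rps24), a ratio of 242. Their median was 1465 TPM, and 14 lay under 500 TPM. With the TPM of copies added to their gene, the same 77 genes spanned 866.9 TPM (Rpl29) to 4675 TPM (Rps27), a ratio of 5.39, and 0 lay under 500 TPM. The SD of the log2 mean TPM across the 77 genes was 1.59 as quantified and 0.568 with copies. These are descriptions of libraries in which the genes and copies share reads, and whether copies were transcribed was not tested.

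**Figure D2:**
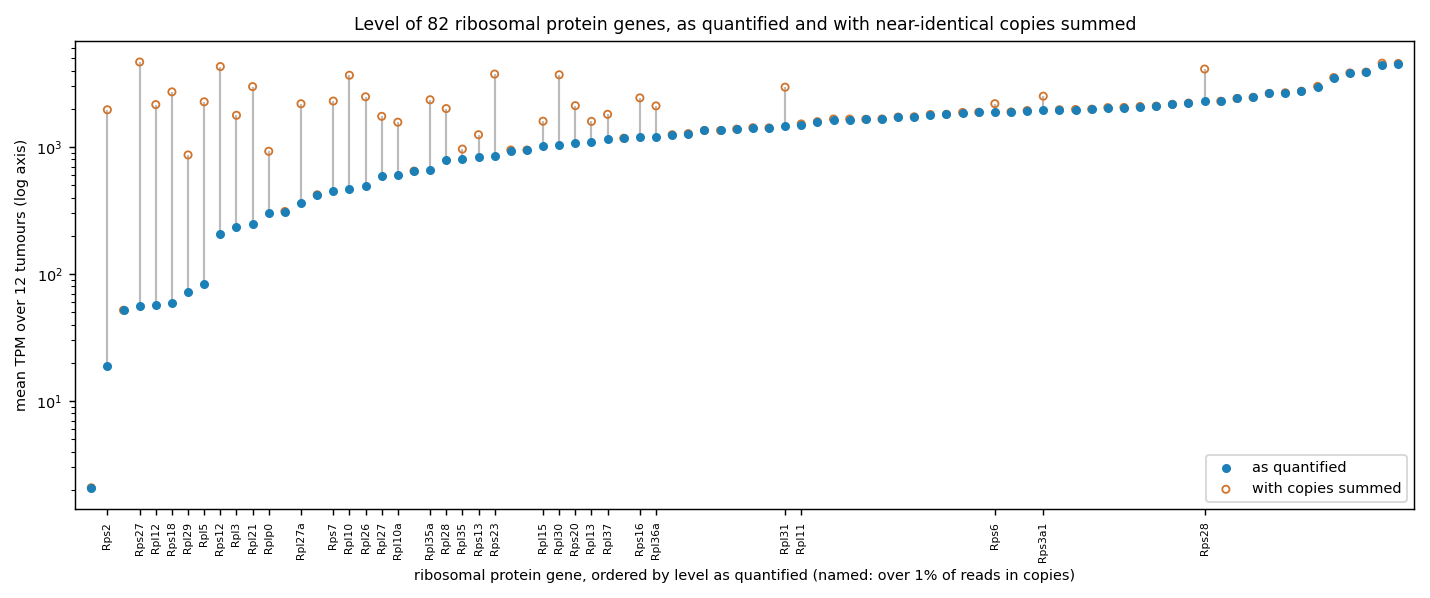
Mean TPM over the 12 tumours (vertical log axis) of each of the 82 genes, ordered by level and named where over 1% of reads lay in copies, with filled points as quantified and open points with near-identical copies summed. The lines join both values of a gene, and the genes at the low end, such as Rps2 at 18.7 TPM as quantified and 1966 TPM with copies, move furthest.

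Among genes hardly touched by copies, Rps24 had the highest level, at 4531 ± 269 TPM (SD, n = 12) and between 3989 and 4897 TPM in single libraries. It encodes a small-subunit protein needed for maturation of 18S ribosomal RNA, and mutations in its human counterpart cause Diamond-Blackfan anaemia. Rps29, of the small subunit, followed at 4390 ± 289 TPM. Its range over libraries overlapped that of Rps24. Next came Rplp1, an acidic stalk protein that recruits elongation factors, at 3896 ± 493 TPM, and Rpl41, the smallest ribosomal protein, at 3833 ± 421 TPM. Rplp1 and Rpl41 did not differ beyond their spread.

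Further down the order came Rpl23a (2998 ± 106 TPM), Rps15 (2755 ± 188 TPM), Rpl13a (2676 ± 205 TPM) and Rpsa (2644 ± 210 TPM). Rpsa is a small-subunit protein also known as the laminin receptor. The stalk proteins were unequal, since Rplp2, the partner of Rplp1, had 1723 ± 270 TPM, and Rplp0 had 301 ± 29.6 TPM as quantified and 926.5 ± 61.5 TPM with copies. The median gene of the large subunit had 1351 TPM and that of the small subunit 1811 TPM as quantified, or 1878 and 2196 TPM with copies. These medians leave out the paralogues. Over all 82 genes, the paralogues included, the means of the subunits were also compared with copies summed. The mean TPM of the large-subunit genes was then 0.778 ± 0.011 times that of the small-subunit genes (SD, n = 12 libraries).

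The transcripts that held the remaining reads differed between genes. In genes with over 80% of reads in copies, transcripts annotated as retained introns made up a median of 37.9% of the gene's own TPM, against 0.583% in genes with under 1% in copies. Retained-intron transcripts held 76.5% of the TPM of Rps2, 83.5% of Rps7, 71.8% of Rpl12 and 66.5% of Rps18, the highest of these 10 genes. In the other 6 the share was 0% (Rpl29), 10.6% (Rps12), 18.6% (Rpl3), 18.9% (Rpl10), 26.7% (Rps27) and 49.1% (Rpl5). The highest share was in Rps16 (94.1%), which had 39.3% of its reads in copies. For Rps24, the coding transcript Rps24-201 held 84.0% of the TPM, and its share ranged from 82.4% to 86.3% in ctrl and within overlapping limits in the other groups.

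The effect of miR-EV treatment on the 82 genes was examined with DESeq2, in which log2 fold changes refer to read counts normalised for depth and transcript length. None of the 82 genes passed an adjusted p-value of 0.05 in any comparison. Against ctrl, the counts were 0 with miR-142-5p-EVs, 0 with miR-183-5p-EVs and 0 with miR-222-3p-EVs, where 0.00649%, 0% and 0.026% of all genes passed. Between miRNA groups the counts were 0 when miR-183-5p was set against miR-142-5p (0.0519% of all genes), 0 when it was set against miR-222-3p (0.0324%) and 0 when miR-142-5p was set against miR-222-3p (0.0389%). In the test of any difference among the 4 groups the count was 0 (0.0584% of all genes). edgeR also called 0 of them in each of these 7 tests.

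At an unadjusted p under 0.05, the members also stayed near or under the share of all genes. Against ctrl the DESeq2 counts were 0 for miR-142-5p (3.56% of all genes), 1 for miR-183-5p (1.22% of members, 3.22% of all genes) and 2 for miR-222-3p (2.44% of members, 2.29% of all genes). The count was 1 when miR-183-5p was set against miR-142-5p (7.95% of all genes), 3 when it was set against miR-222-3p (3.24%) and 1 when miR-142-5p was set against miR-222-3p (3.59%). For any difference among the 4 groups there were 2, with 4.74% of all genes. The edgeR counts were 0, 1 and 1 against ctrl, 1, 3 and 1 between miRNA groups and 2 for any difference. The genes in question under DESeq2 were Rpl39l, Rps12, Rpl10a and Rpl5, which are described below.

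The intervals of the differences were narrow for most genes. Of the 81 genes with a mean normalised count of at least 100, the 95% interval of the fold change against ctrl lay within 1.5-fold in either direction for 77 with miR-142-5p, 78 with miR-183-5p and 72 with miR-222-3p. The median half-width of the interval was 0.275 on the log2 scale. With copies summed, an alternative chosen after the data had been seen, 79, 81 and 78 genes lay within 1.5-fold. Rplp0 had log2 fold changes of 0.02, -0.03 and 0.08 against ctrl in the order given above (SE 0.17 each), and Rps24 had 0.00, 0.02 and 0.00 (SE 0.13 each). Larger values did not pass the test either. Rps13, of the small subunit, had 0.19 with miR-142-5p (SE 0.20), Rpl30, of the large subunit, had -0.19 with miR-183-5p (SE 0.12), and Rps2 had 0.25 with miR-222-3p (SE 0.24).

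The median log2 fold change of the 82 genes against ctrl was 0.019 with miR-142-5p, -0.016 with miR-183-5p and -0.014 with miR-222-3p, beside -0.005, -0.011 and -0.008 over all genes tested. In miR-142-5p, 52 genes had values above 0 and 30 below. For miR-183-5p these numbers were 31 and 51, and for miR-222-3p 37 and 45. The subunits had like medians, at 0.018, -0.016 and -0.014 for the large and 0.021, -0.019 and -0.014 for the small subunit. The 3 comparisons share the ctrl tumours.

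**Figure D3:**
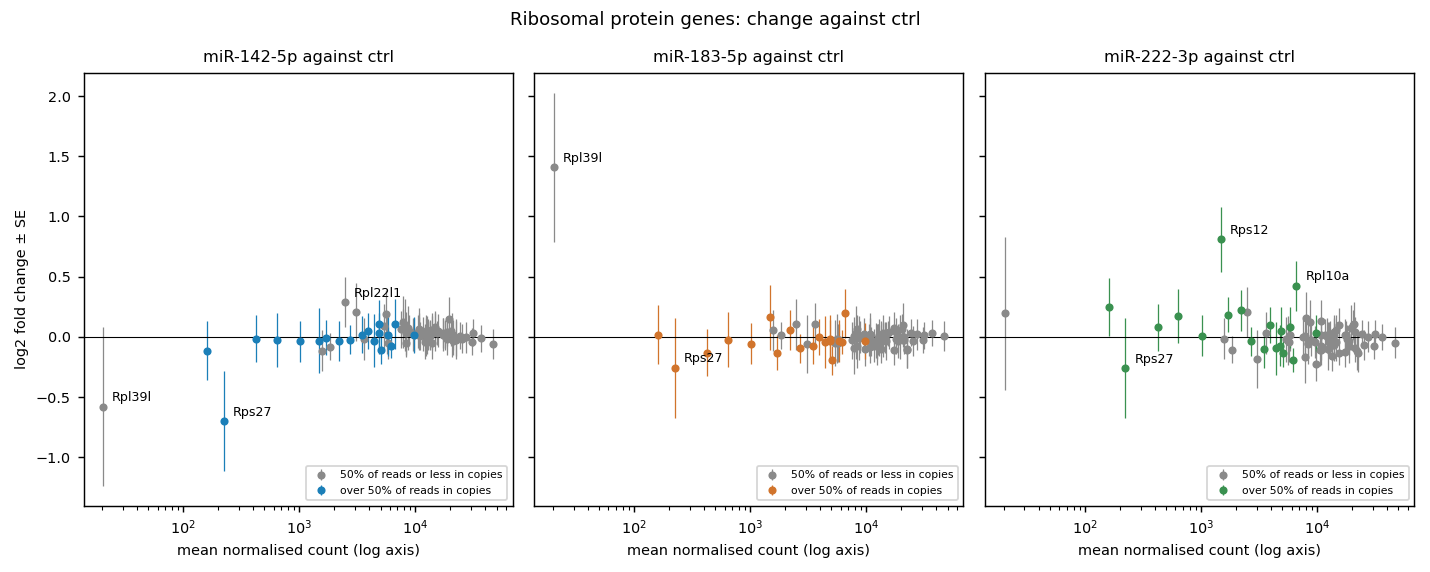
Log2 fold change against ctrl with its standard error (vertical axis) by mean normalised count (horizontal log axis) for the 82 genes in each miRNA group. Coloured points are the genes with over 50% of reads in copies, and the labelled genes are those furthest from 0, with Rps12 at 0.81 and Rps27 at -0.70 among the coloured points and Rpl39l, the gene with the fewest reads, at 1.41.

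Summed over the 82 genes, ribosomal proteins made up 12.65%, 11.19% and 11.92% of the TPM in ctrl tumours 1 to 3. The shares were 12.34%, 11.59% and 12.32% with miR-142-5p, 11.96%, 11.65% and 11.45% with miR-183-5p, and 11.47%, 11.30% and 12.81% with miR-222-3p. The groups overlapped, with means of 11.92 ± 0.73% in ctrl, 12.08 ± 0.43%, 11.69 ± 0.25% and 11.86 ± 0.82% (SD, n = 3). With copies the shares lay between 16.16% and 18.41%.

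Tumours of the same group differed more than the groups did. The median gene lay 0.23 above its mean over the 12 tumours, on the log2 scale of normalised counts, in ctrl tumour 1, where 79 of 82 genes were above their mean. It lay -0.12 and -0.10 from it in ctrl tumours 2 and 3, where 14 and 12 genes were above. In miR-142-5p tumours 1 to 3 the medians were 0.15, -0.01 and -0.06, in miR-183-5p tumours -0.02, 0.02 and -0.04, and in miR-222-3p tumours -0.14, -0.05 and 0.16. The high tumours were therefore 1 of ctrl, 1 of miR-142-5p and 1 of miR-222-3p, and the subunits deviated alike in each. The library of miR-142-5p tumour 3 held 419 TPM of B cell markers against 1.02 to 2.79 TPM in the others, and its ribosomal protein genes deviated by -0.06.

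**Figure D4:**
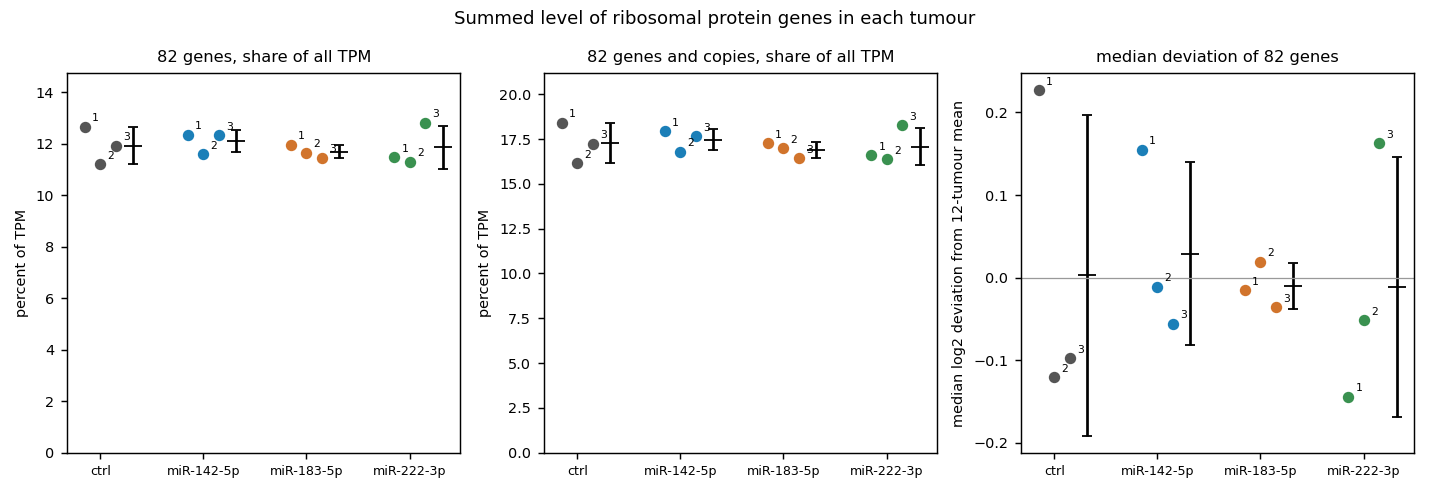
Percent of all TPM held by the 82 genes (left), by the genes and their copies (centre) and the median log2 deviation of the 82 genes from their mean over the 12 tumours (right), with 1 numbered point per tumour and bars for mean ± SD of 3 tumours. Ctrl tumour 1 and miR-222-3p tumour 3 lie highest in the left and right panels, and the groups overlap in each panel.

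Genes of the 2 subunits moved together across these tumours. For the 81 genes with a mean normalised count of at least 100, Pearson's r of log2 normalised counts had a median of 0.63 over 3240 gene pairs, each over the same 12 libraries, and 90% of pairs were positive. The median was 0.00051 for pairs of all genes and 0.45 for mitochondrial ribosomal proteins. It was 0.42 for 574 other short protein-coding genes. These had an effective length of at most 667.6 bases and a mean normalised count of at least 100. The points of these correlations share libraries, depth scaling and, for ribosomal protein genes, short length. The other short genes deviated in the same tumours, with a median of 0.23 in ctrl tumour 1, -0.19 in ctrl tumour 3 and 0.17 in miR-222-3p tumour 3. The sets were not matched for read count. The part of read count, RNA quality or length in this movement was not tested.

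Rpl38, a large-subunit protein known for its role in the translation of Hox mRNAs, followed the others most closely (median r with the other genes 0.80), beside Rps19 (0.79) and Rpl17 (0.79). Few genes went against the rest, namely Rpl10 (-0.20), Rps18 (-0.17), the paralogue Rpl7l1 (-0.09) and Rps27 (-0.03). Of these, Rpl10, Rps18 and Rps27 had over 80% of their reads in copies. The other genes with over 80% in copies had positive values, from 0.173 for Rps2 to 0.725 for Rpl3.

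Across the 12 tumours the genes with a mean normalised count of at least 100 had a median SD of 0.142 (log2 normalised counts), against 0.187 over 11542 genes with the same minimum and 0.215 over the other short genes. These sets shared only the minimum and were not matched for read count, and the part of read count in the SDs was not tested. Rps15a (SD 0.083), Rpl32 (0.091) and Rpl4 (0.098) varied least, and Rpl4 ranged from 32418 to 41001 normalised counts. Rps27 (0.574), Rps12 (0.476) and Rpl36 (0.328) varied most. With copies summed, the SD was 0.119 for Rps27 and 0.177 for Rps12. The SD of Rpl10a was 0.287 as quantified and 0.101 with copies, and that of Rpl3, a protein near the peptidyl transferase centre, 0.226 and 0.053. Among the 19 genes with over 50% of reads in copies, the SD was lower with copies in 12 and higher in the other 7, such as Rpl21, where it was 0.107 as quantified and 0.141 with copies.

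Rpl36, of the large subunit, has few reads in copies (0.175%). Its normalised counts were 3486, 2847 and 2822 in ctrl, 3579, 3406 and 3593 in miR-142-5p, 3957, 2535 and 2311 in miR-183-5p, and 2022, 2267 and 3768 in miR-222-3p tumours 1 to 3. Tumours of the same group were thus far apart, with those of miR-142-5p closest to each other. The log2 fold changes against ctrl were 0.21, -0.06 and -0.18 (SE 0.24 each) and did not pass the test. Rplp2 had a like spread, from 5730 normalised counts in miR-183-5p tumour 3 to 9586 in ctrl tumour 1.

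Rps12, a small-subunit protein at the beak of the subunit, had the largest difference from ctrl among the genes with at least 100 normalised counts. Its normalised counts were 1691, 967 and 982 in ctrl, 1336, 1091 and 1134 in miR-142-5p, 1097, 1088 and 1885 in miR-183-5p, and 1914, 1770 and 2695 in miR-222-3p tumours. The miR-222-3p tumours lay above those of ctrl and miR-142-5p without overlap. The log2 fold change of miR-222-3p against ctrl was 0.81 (SE 0.27, 95% interval 0.29 to 1.34, unadjusted p = 0.0025), which did not pass adjustment over all genes (adjusted p = 1 with DESeq2). The miR-142-5p tumours were set against the miR-222-3p tumours in the same way, where the log2 fold change of miR-142-5p relative to miR-222-3p was -0.84 with an adjusted p of 0.72 with DESeq2.

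Without ctrl tumour 1, whose value was the highest of its group, the log2 fold change of Rps12 for miR-222-3p against ctrl was 1.13 with an adjusted p of 0.0487 by DESeq2. In that comparison 4 of 15376 genes tested were called without ctrl tumour 1. The log2 fold change of Rps12 was 0.67 without ctrl tumour 2, 0.68 without ctrl tumour 3 and 0.60 without miR-222-3p tumour 3. It did not pass the test there. When the gene and its copies were summed, the difference had the other sign. The summed normalised counts were 26174, 21450 and 20366 in ctrl and 18159, 19001 and 23797 in miR-222-3p, with overlap. The log2 fold change was then -0.16 (SE 0.16, unadjusted p = 0.32 with DESeq2).

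The share of Rps12 reads in copies was 93.86%, 95.2% and 94.88% in ctrl, 94.79%, 95% and 93.98% in miR-142-5p, 94.97%, 95.3% and 89.88% in miR-183-5p, and 89.85%, 90.93% and 89.35% in miR-222-3p tumours. It was thus low in 4 tumours, the 3 of miR-222-3p and miR-183-5p tumour 3. The same 4 libraries differed in another assignment, since the nuclear pseudogene Gm28661 held 0.00062% to 0.32% of the reads of Gm28661 and the mitochondrial gene mt-Co2 in them and 7.13% to 41.8% in the other 8. Of 33 copy shares, those of Rps12 and Rps16 did not overlap between these 4 and the other 8 libraries. In Rps16 the share was 40.4% to 44.6% in the 4 libraries and 35.5% to 39.1% in the others. This split was noticed after the data had been seen, it falls almost along the miR-222-3p group, and its part in the Rps12 difference was not tested. Whether these 4 libraries were quantified with the settings of the other 8 is not given in the sources used here. For genes with reads in copies, a difference of the miR-222-3p group as quantified therefore cannot be told apart from a difference in how reads were assigned.

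**Figure D5:**
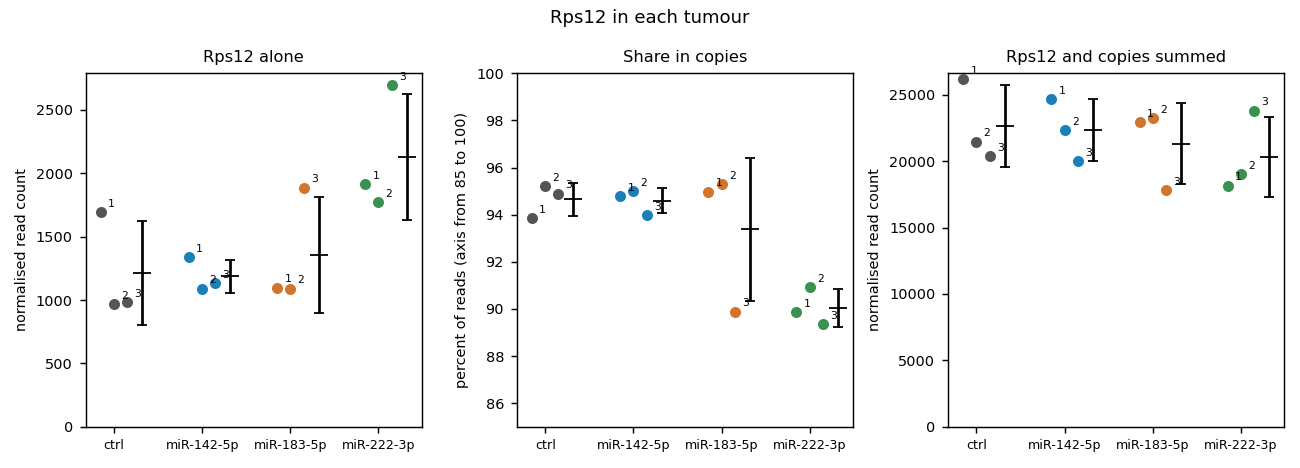
Normalised read count of Rps12 (left), percent of reads in its copies (centre, axis from 85 to 100) and normalised count of gene and copies summed (right) in each numbered tumour, with bars for mean ± SD of 3 tumours. The miR-222-3p tumours are the highest group on the left, the lowest in the centre and overlap ctrl on the right.

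Rpl10a, of the large subunit, had 7602, 4425 and 5339 normalised counts in ctrl and 6375, 7893 and 9025 in miR-222-3p tumours, which overlapped. Its log2 fold change was 0.42 (SE 0.21, unadjusted p = 0.040, adjusted p = 1 with DESeq2), and with copies summed 0.06 (SE 0.11). Its share in copies was 51.3%, 62.55% and 56.55% in ctrl and 51.85%, 45.41% and 43.39% in miR-222-3p. Rpl5 had 1418, 1502 and 1696 normalised counts with miR-183-5p and 1979, 1817 and 1960 with miR-222-3p, which did not overlap. The log2 fold change of miR-183-5p against miR-222-3p was -0.32 (SE 0.14, unadjusted p = 0.027), and with copies summed it was -0.02 (SE 0.10).

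Rps27, a zinc finger protein of the small subunit, had the lowest value among genes with at least 100 normalised counts in each comparison with ctrl. Its normalised counts were 279, 220 and 312 in ctrl, 229, 127 and 144 in miR-142-5p, 402, 112 and 166 in miR-183-5p, and 322, 176 and 180 in miR-222-3p tumours. The groups overlapped. The log2 fold changes were -0.70, -0.26 and -0.26 (SE 0.42, 0.41 and 0.41) and, with copies summed, 0.07, 0.03 and -0.01 (SE 0.12 each). The alternative thus turned the sign of the first and second.

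Few genes had values that did not overlap those of ctrl. Against ctrl there were 0 such genes with miR-142-5p (6.07% of all genes), 1 with miR-183-5p (9.17%) and 2 with miR-222-3p (5.5%). The first was Rpl39l and the others were Rps12 and Rpl21. Rpl21 had 6830, 6482 and 6340 normalised counts in ctrl and 5619, 6024 and 5592 in miR-222-3p, with a log2 fold change of -0.19 (SE 0.10, unadjusted p = 0.052). With copies it was -0.02 (SE 0.14). Non-overlap between miRNA groups, as of Rpl5 above, was not set beside a share of all genes.

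Among genes with under 1% of reads in copies and at least 100 normalised counts, the values furthest from 0 in the comparisons with ctrl were those of Rpl22l1, Rpl39 and Rpl36. Rpl39 lines the exit tunnel of the large subunit. It had 11723, 8995 and 9772 normalised counts in ctrl and 8475, 8028 and 9598 in miR-222-3p, with overlap. Its log2 fold change was -0.22 (SE 0.14).

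Paralogues of ribosomal proteins replace their parent protein in some tissues or act outside the ribosome. Of the 5 that passed the limit, Rpl36al had 647 ± 61.7 TPM beside 1205 ± 66.9 TPM of Rpl36a (SD, n = 12). Rpl22l1, whose protein has roles in splicing and development, had 418 ± 59.8 TPM beside 1276 ± 71.0 TPM of Rpl22. Rps27l, a p53 target, had 311 ± 28.2 TPM beside 55.97 ± 23.6 TPM of Rps27 as quantified and 4675 ± 283 TPM of Rps27 with copies. Rpl7l1, a factor of ribosome assembly, had 51.9 ± 4.57 TPM beside 1939 ± 56.6 TPM of Rpl7. Each of these 4 lay below its parent once copies were counted.

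Rpl22l1 had 2957, 1452 and 2225 normalised counts in ctrl and 2920, 2697 and 2480 in miR-142-5p. The ctrl tumours spanned the values of the miR-142-5p tumours. Its log2 fold change of 0.29 (SE 0.21) was the highest of that comparison among genes with at least 100 counts and did not pass the test. Against ctrl the values of Rps27l were -0.11, 0.06 and -0.01 (SE 0.17 each), and those of Rpl7l1 were -0.08, 0.01 and -0.11 (SE 0.11 each).

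Rpl39l, the paralogue of Rpl39 that is abundant in male germ cells, had the lowest level, at 2.07 ± 1.57 TPM, and no copy was found. Its normalised counts were 17.9, 20.6 and 6.10 in ctrl, 15.1, 9.73 and 5.35 in miR-142-5p, 29.0, 26.9 and 62.7 in miR-183-5p, and 8.66, 22.5 and 19.8 in miR-222-3p tumours. The miR-183-5p tumours lay above all others without overlap, with tumour 3 the highest. The log2 fold change was 1.41 against ctrl (SE 0.62, unadjusted p = 0.022), 1.21 against miR-222-3p (SE 0.61) and 1.99 against miR-142-5p (SE 0.63). The last had the lowest adjusted p of any member in these tests, 0.181 with DESeq2. Without miR-142-5p tumour 1 the log2 fold change against miR-142-5p was 2.40 with an adjusted p of 0.0436 by DESeq2. In that comparison 415 of 14509 genes tested were called without this tumour, against 8 of 15413 with all tumours. Without miR-183-5p tumour 3 the log2 fold change against miR-142-5p was 1.49, with an adjusted p of 0.9999 by DESeq2, and that against ctrl was 0.91. That fit gave 0 ribosomal protein genes with an unadjusted p under 0.05 when miR-183-5p was compared with ctrl. With all tumours the count was 1 (1.22% of members, beside 3.22% of all genes). The share of all genes in the reduced fit is not given here.

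Skeletal muscle markers summed to 232 TPM in miR-183-5p tumour 3 and to between 1.81 and 15.9 TPM in the other 11 libraries, and all 4 markers of that list were detected at a mean of 1 TPM or more. Rpl3l, which was not tested, was listed at 1.09 TPM in that library and at 0.181 to 0.525 TPM in the others. In miR-183-5p tumours 1 and 2 the muscle markers summed to 5.92 and 1.81 TPM, beside 2.85 to 7.93 TPM in ctrl. Rpl39l had 29.0 and 26.9 normalised counts in these tumours. The part of muscle tissue in the Rpl39l value of tumour 3 was not tested.

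Genes related to the ribosome were compared in the same way. Outside the symbol rule, Fau, which encodes a ribosomal protein fused to a ubiquitin-like one, had log2 fold changes of 0.13, -0.03 and 0.09 against ctrl (SE 0.20 each), and Rack1, a scaffold on the small subunit, had 0.01, -0.03 and 0.02 (SE 0.12 each). Neither passed the test. Of 19 other TOP mRNAs, among them Eef1a1 and Pabpc1, 0 were called, with medians of -0.03, 0.02 and -0.02. Of 78 mitochondrial ribosomal proteins 0 were called, with medians of -0.03, 0.01 and -0.01. The share of all genes called in each comparison is that given above. At an unadjusted p under 0.05 the DESeq2 counts were 0 for the TOP mRNAs in each comparison with ctrl, and 0, 0 and 2 for the mitochondrial list. edgeR called 0 genes of both lists and gave the same counts at an unadjusted p under 0.05.

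Of 14 genes that act in growth signalling upstream of ribosomal protein synthesis, 0 were called against ctrl by DESeq2 or by edgeR. At an unadjusted p under 0.05, both tests gave 1 gene in each comparison. By DESeq2, 3.56%, 3.22% and 2.29% of all genes passed that limit. Mtor, the kinase of the TOP pathway, had log2 fold changes of -0.47, -0.24 and -0.32 (SE 0.22 each). Polr1a, the large subunit of RNA polymerase I, had -0.22, -0.38 and -0.28 (SE 0.12 each). Myc, an activator of ribosome synthesis, had -0.02, -0.14 and 0.18 (SE 0.18 each), and Larp1 had -0.24, -0.11 and -0.13 (SE 0.15 each). Other genes of the list lay above 0 in each comparison, such as Eif4ebp2 at 0.24, 0.09 and 0.16 (SE 0.13 each). Rheb had 0.02, 0.00 and 0.06 (SE 0.115 each). The median of this list was 0.00, -0.06 and -0.02.

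The starts of the genes are shown because the genes moved together across tumours and because the TOP motif lies there. RefSeq start windows (GRCm38.p6) were found for 62 of the 82 genes. Shown are 30 bases before and 20 bases from the annotated start, with the longest run of C or T near the start in capitals. The windows lie at chr7:141447621-141447670 (plus strand) for Rplp2, chr14:24490648-24490697 (plus) for Rps24, chr4:86857348-86857397 (minus) for Rps6, chr3:90213629-90213678 (minus) for Rps27, chr3:28805478-28805527 (plus) for Rpl22l1 and chr17:46782637-46782686 (minus) for Rpl7l1.

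Rplp2: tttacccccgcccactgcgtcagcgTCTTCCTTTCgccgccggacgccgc
Rps24: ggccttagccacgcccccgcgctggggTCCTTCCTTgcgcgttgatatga
Rps6: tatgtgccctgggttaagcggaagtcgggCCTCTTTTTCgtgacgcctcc
Rps27: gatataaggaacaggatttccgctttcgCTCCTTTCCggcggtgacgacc
Rpl22l1: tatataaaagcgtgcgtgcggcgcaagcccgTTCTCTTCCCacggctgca
Rpl7l1: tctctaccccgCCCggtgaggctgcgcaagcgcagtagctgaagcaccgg

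In the windows shown, Rplp2, Rps24, Rps6, Rps27 and the paralogue Rpl22l1 had runs of 9 or 10 pyrimidines at or beside the annotated start. Rpl7l1 had 3. Rps24 had another annotated start window (chr14:24490723-24490772), whose longest run was 7 and began 11 bases after the start. The genes shown were picked, and short runs were also found in windows of other ribosomal protein genes, such as 3 in Rpl41, 5 in Rpsa and in Rpl36a, 6 in Rps2 and 7 in Rplp0 and Rps15. A run of at least 8 within 20 bases on either side of the start was present in 30 of 62 genes (48.4%) and in 18.3% of 26963 other genes. The annotated start base was C in 33.9% of the genes and 18.8% of the others. In the 300-base windows, searched on both strands, the letters CCGGAA of ETS factors were present in 56.5% of the genes and 16.6% of the others, and the letters AAGATGG of YY1 in 16.1% and 7.3%. CCGGAA and AAGATGG can share their A bases. TATAAA was present in 11.3% and 15.7%, and CCAAT in 32.3% and 41.1%. These matches describe letters in annotated windows, and no binding or start site was measured here.

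The depth of the libraries ranged from 20285968 to 27021401 estimated reads. Macrophage markers (6 of 6 detected at a mean of 1 TPM or more) summed to between 899 and 1336 TPM in miR-183-5p tumours, below the range of ctrl (1358 to 1700 TPM) and of miR-142-5p (1457 to 2122 TPM), and to between 1185 and 1805 TPM with miR-222-3p. Fibroblast markers summed to between 904 and 1101 TPM in miR-183-5p tumours, above the range of ctrl (389 to 895 TPM), and red cell markers to between 150 and 271 TPM in miR-222-3p tumours, below that of ctrl (358 to 449 TPM). Epithelial markers (5 of 5) summed to between 1265 and 1855 TPM, with overlap between the groups. Neutrophil, T cell, B cell, endothelial, muscle, adipocyte and proliferation markers, examined too, overlapped ctrl in each group. Of all genes, 6.07% (miR-142-5p), 9.17% (miR-183-5p) and 5.5% (miR-222-3p) did not overlap ctrl. By DESeq2, 0 genes of the macrophage, fibroblast, red cell and epithelial lists were called in any comparison. The part of these cell types in the ribosomal protein values was not tested. Mitochondrially encoded genes took 5.73% to 9.49% of the TPM, and with these left out ribosomal proteins held 11.87% to 13.77% of the rest.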

How the data were processed

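RNA-Seq of 12 4T1 tumours (4 groups of 3, grouped by the labels) was analysed. The authors quantified reads with Salmon, and the deposited tables give, per transcript, an estimated count (an expected count, which may be fractional), the TPM and an effective length. Salmon splits reads that fit several transcripts. Of 118783 transcripts, 116710 (98.3%) matched GENCODE M21 on GRCm38, which may not be the release the authors used. Counts were summed per gene and rounded, and genes needed 10 or more reads in 3 or more libraries. Copies were found with blastn 2.17.0. DESeq2 1.42.0 (Wald test, likelihood ratio test for any difference, length offset, Benjamini-Hochberg adjustment over all genes, threshold 0.05) and, as an alternative, edgeR 4.0.16 were run in R 4.3.3 and tested on simulated data. Python 3.11.15 with pandas 2.3.3, numpy 2.4.6 and matplotlib 3.10.9 served for tables and plots.

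The members and lists were chosen with earlier results of these data known. Genes named were Rplp0, Rplp1, Rplp2, Rpsa, those of highest and lowest TPM of each subunit, paralogues with their parents, the 3 largest rises and falls against ctrl at a mean normalised count of at least 100, those with most reads or the widest range in copies, and those with the highest and lowest SD. Some genes that the rule includes are not reported here, and others were named after their values were seen. Alternatives were other normalisations and filters, a replicate block, each tumour left out in turn and, added after seeing the data, all copies summed.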

Additional observations from a re-analysis of the deposited data

How the results depend on the processing

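The count of called ribosomal protein genes was recomputed 160 times over 7 tests and stayed at 0 in 157. It was 1 when miR-142-5p was set against miR-222-3p and only these groups entered the fit (Rps12, adjusted p = 0.0240 with DESeq2). That fit called 14 of 14923 genes tested. With 1 tumour left out, the count ranged from 0 to 1 for miR-222-3p against ctrl (1 without ctrl replicate 1, Rps12) and from 0 to 1 when miR-183-5p was set against miR-142-5p (1 without miR-142-5p replicate 1, Rpl39l). Of all genes tested, 4 of 15376 were called in the former fit and 415 of 14509 in the latter. In the other leave-one-out fits the count of ribosomal protein genes was 0. No alternative moved the median log2 fold change of the 82 genes or their TPM share by more than the spread between tumours. Leaving out 1 of 3 tumours could hardly exceed that limit, so staying within it does not show that the values are stable. Leaving out single tumours changed the sign of each median and of each difference in TPM share against ctrl. The medians against ctrl ranged from -0.045 to 0.13 (miR-142-5p), -0.083 to 0.11 (miR-183-5p) and -0.11 to 0.11 (miR-222-3p), with the limits given by leaving out a ctrl tumour or miR-222-3p tumour 3. With the replicate number as a block, 0 genes were called in each test and the medians were 0.02, -0.01 and 0.00. Tumours with the same number had a mean residual correlation of -0.045 (lowest -0.444), beside 0.022 for tumours with different numbers. Each group had been centred on its mean, which ties these values together. They therefore cannot decide whether tumours with the same number share a batch, and the labels do not say. Low counts limit the result for Rpl39l, and the split of reads between gene and copy limits it for genes with most reads in copies.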
